A study of Mus musculus with 19 samples.

Results

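The circadian clock is represented here by 10 genes of its core loops, chosen by name: Per1, Per2, Per3, Cry1, Cry2, Arntl, Clock, Nr1d1, Dbp and Bhlhe40. Rows of the deposited expression table were matched to these names, and 8 of the 10 genes were found among its 12629 genes. Per1 and Clock were not analysed here. The profiles are bulk RNA-seq libraries of GFP-positive cells that were sorted by FACS from dissociated dorsal root ganglia (DRGs), which hold the cell bodies of sensory neurons. The study asked which transcripts accompany sensory axon growth into the spinal cord when an activated integrin is supplied. All animals received AAV5 vectors in the left cervical DRGs. GFP-naive animals (5 libraries) received AAV5-fGFP, with GFP under a CMV promoter, and no crush. GFP-crush animals (4 libraries) received the same vector and a crush of the dorsal roots. α9k1-naive animals (6 libraries) received AAV5-α9-V5, the integrin subunit α9 under a CAG promoter, together with AAV5-kindlin1-GFP, its activator kindlin-1 fused to GFP under a CMV promoter. α9k1-crush animals (4 libraries) received both of these vectors and the crush. DRGs were taken 8 weeks later in all 4 groups. GFP marks the kindlin-1 vector in the α9k1 groups, so sorted cells need not have carried the α9 vector. The methods name adult male Lewis rats and the labels name the mouse strain C57BL/6. The time of day of collection and the batch of each library were not given in the sources used here. Clock transcripts can change with the hour of sampling, and a difference in hour between groups cannot be told apart from an effect of vector or crush. The libraries of a group are described as biological replicates, without a statement that 1 library is 1 animal, and p-values measure the spread between the libraries as deposited.

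The clock is a transcriptional feedback loop that runs in most cells. The activator BMAL1, encoded by Arntl, pairs with CLOCK on E-box elements and drives the Per, Cry, Nr1d1, Dbp and Bhlhe40 genes. PER and CRY proteins then inhibit that pair, REV-ERBα (encoded by Nr1d1) represses Arntl, and the transcription factor DBP carries the rhythm to output genes through D-box elements. Bhlhe40 encodes DEC1, a repressor that competes for E-boxes and is also an early response gene to stimuli unrelated to the time of day.

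Promoter sequences were taken from RefSeq for 6 members (7 promoters, as 2 were used for Arntl), on the mouse build GRCm38.p6. Entries for Per2 and Bhlhe40 were not used here. The 250 bases before each start site were searched on both strands for the E-box CACGTG, its variant CACGTT (E-prime box), the ROR half-site AGGTCA, the D-box TTATGTAA and the cyclic AMP response element TGACGTCA, and no matches of different motifs overlapped. The promoters of the 3 members with a called change below and a promoter used here are shown, so that the motifs found, or not found, can be read in place. Capitals mark a motif and the strand is that of the gene.
Arntl, first start site, chr7:113207215-113207464, plus strand: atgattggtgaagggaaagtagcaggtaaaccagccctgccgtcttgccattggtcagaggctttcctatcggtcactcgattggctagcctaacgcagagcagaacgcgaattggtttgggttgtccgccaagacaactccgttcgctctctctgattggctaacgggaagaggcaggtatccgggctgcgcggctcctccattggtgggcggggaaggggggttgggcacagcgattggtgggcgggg
Per3, chr4:151044666-151044915, minus strand: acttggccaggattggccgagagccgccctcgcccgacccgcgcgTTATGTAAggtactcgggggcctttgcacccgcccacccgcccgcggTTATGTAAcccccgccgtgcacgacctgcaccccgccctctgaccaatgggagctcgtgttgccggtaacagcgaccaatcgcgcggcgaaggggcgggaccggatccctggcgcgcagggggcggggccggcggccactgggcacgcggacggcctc
Nr1d1, chr11:98775378-98775627, minus strand: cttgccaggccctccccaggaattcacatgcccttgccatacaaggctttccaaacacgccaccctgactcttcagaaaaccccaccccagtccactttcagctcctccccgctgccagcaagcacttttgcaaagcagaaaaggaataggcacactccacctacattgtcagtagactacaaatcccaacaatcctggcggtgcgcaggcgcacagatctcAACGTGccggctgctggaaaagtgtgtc
The Per3 window held 2 copies of the D-box, ending 197 and 150 bases before the start site. A D-box was present in 0.819% of all 32851 RefSeq promoter windows of this length. The Nr1d1 window held 1 E-prime box, 22 bases before the start, a motif present in 3.85% of all windows. Cry1 held an E-box 54 bases and an E-prime box 73 bases before its start, and Cry2 an E-prime box 160 bases before its start. E-boxes were present in 6.02% of all windows. No searched motif was found in the windows of Arntl or Dbp, and no member window held the ROR half-site or the cyclic AMP response element, present in 14.0% and 1.55% of all windows. These are matches of letters in mouse DNA within a short window, and were not tested as binding sites.

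Sequencing depth was 36.4 to 87.6 M read pairs a library. Between 47.5% and 54.1% of reads aligned to the mouse genome, with 3.87% to 4.05% mismatched bases. Fermt1, which encodes kindlin-1, had log2 levels of 5.18 to 7.73 in the 10 α9k1 libraries and 0.42 to 0.80 in the 9 GFP libraries. Itga9, which encodes the α9 subunit, overlapped between the naive groups, with 2.38 as the lowest α9k1-naive and 2.40 as the highest GFP-naive level, and was called higher in α9k1-naive libraries (log2FC = 1.72 ± 0.52 SE; adjusted p = 0.0273, limma). Both genes were also higher in α9k1-crush than in α9k1-naive libraries (Itga9 by 3.51 and Fermt1 by 1.67; adjusted p = 0.0404 and 0.0591, limma), so those groups differ in the level of both vector genes as well as in the crush. Cells other than neurons contributed to the libraries. All 12 neuronal markers were present, with median summed log2 levels of 13.5 in GFP-naive, 14.1 in GFP-crush, 12.7 in α9k1-naive and 14.2 in α9k1-crush libraries. All 8 satellite glia markers were present, mostly from Apoe, at 15.7, 14.9, 16.5 and 14.4 in that order. Between the naive groups neither list overlapped, with neuronal markers at 12.6 to 12.9 in α9k1-naive and 13.3 to 13.6 in GFP-naive libraries and satellite glia markers at 16.3 to 16.8 and 15.6 to 16.0. Between the naive groups 29.1% of all genes were called. Of the 12 single neuronal genes, 1 was called higher, 4 lower and 7 not at all there (median log2FC -0.25). The 3 neurofilament genes were lower by over 2. The satellite glia sum follows Apoe, and of its 8 single genes 3 were called higher, 1 lower and 4 not at all, with a median log2FC of 0.03. All 8 Schwann cell markers were present, at medians of 13.3, 13.6, 11.8 and 13.2. Macrophage markers (6 of 8 present) had medians of 7.28, 9.07, 8.52 and 8.64 in the same order of groups, and endothelial and fibroblast markers (5 of 8 present) of 9.48, 8.38, 6.93 and 7.93. In such bulk samples, fewer cells of a type and less RNA per cell cannot be told apart, for the members as for the markers. The part of these marker changes in the results on clock genes was not tested.

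Levels are the deposited log2 values, normalized by the authors, so that 1 unit is a 2-fold difference. Each comparison was tested with limma on all 12629 genes and the 19 libraries together, and 3 principal components of their sequencing metrics entered as covariates. A gene was called at an adjusted p (Benjamini-Hochberg over all genes) under 0.1. These components are partly aligned with the groups (74.5% of the variance of the third lay between groups), so the same fit without covariates is given beside the main fit. The variance of a difference grew from 0.5 to 3.11 times the residual variance when the components were added for α9k1-crush against GFP-crush, and from 0.367 to 0.654 for α9k1-naive against GFP-naive. The crush comparison between the vectors was therefore the least precise of the 4.

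**Figure D1:**
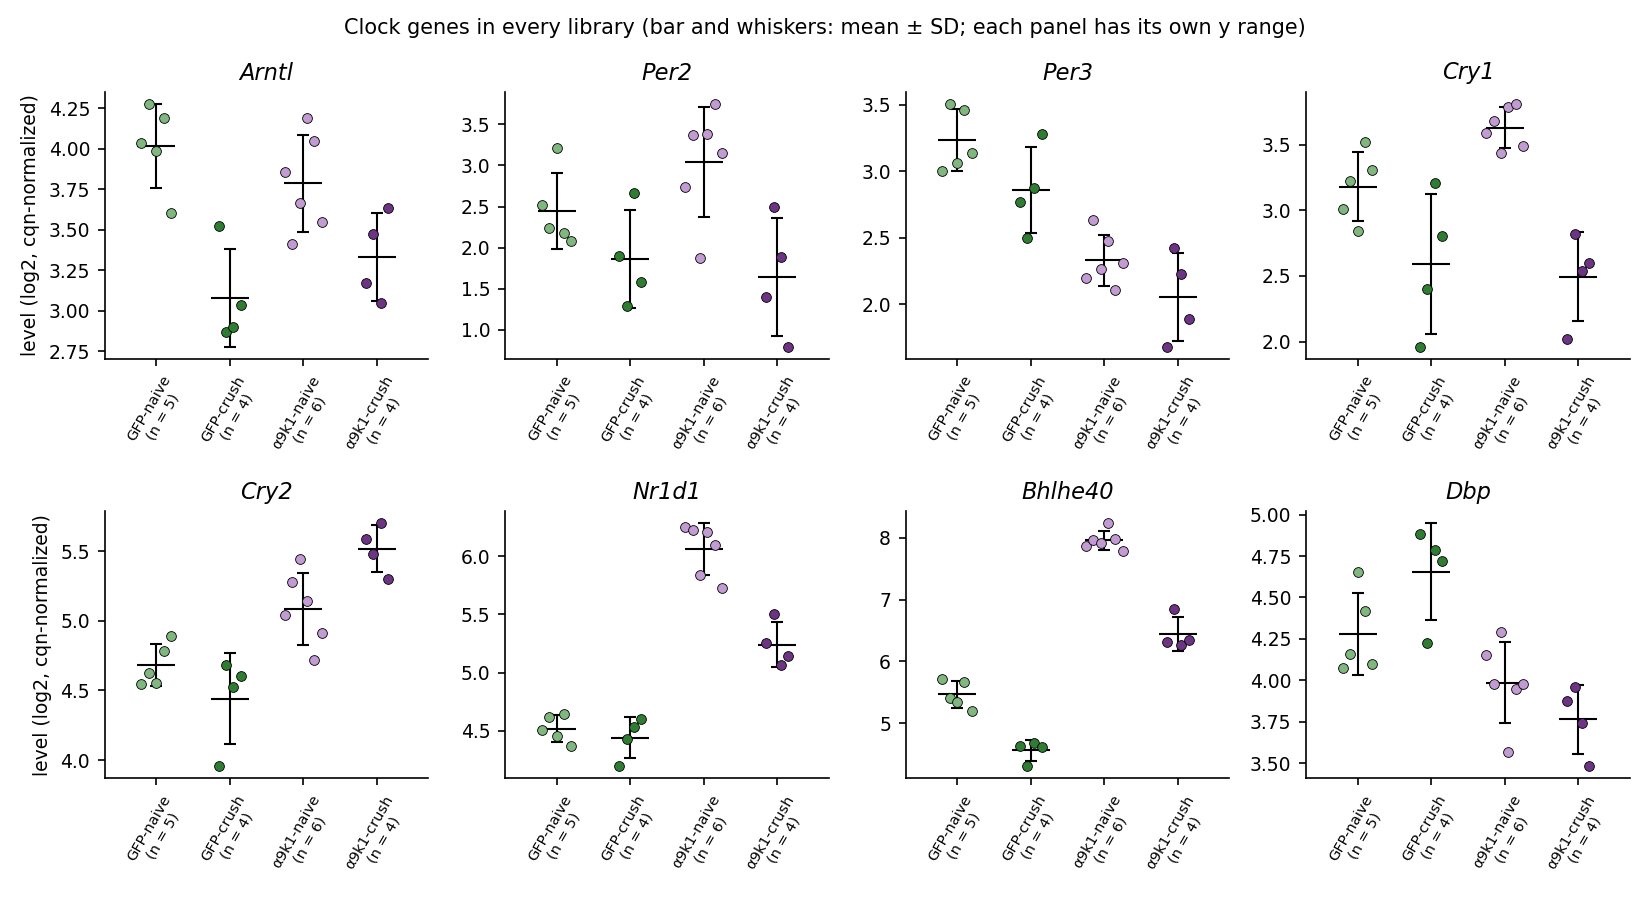
Levels of the 8 clock genes in every library (y axis, deposited log2 values; x axis, the 4 groups). Each point is 1 library, and the bar and whiskers are the mean ± SD. Bhlhe40 and Nr1d1 lie higher in every α9k1 library than in every GFP library, and the Arntl points of the GFP-crush group lie below those of the GFP-naive group.

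In α9k1-naive compared with GFP-naive libraries, Bhlhe40 and Nr1d1 were higher and Per3 was lower, while the other 5 members were not called. This comparison sets the α9k1 against the GFP vector in the absence of injury. Among all genes, 29.1% were called, against 3 of the 8 members. The median difference of the 8 members was 0.38 on the log2 scale and that of all genes -0.08.

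Bhlhe40 had log2 levels of 5.72, 5.41, 5.34, 5.66 and 5.19 in the 5 GFP-naive libraries. Its lowest, median and highest levels in the α9k1-naive libraries were 7.79, 7.94 and 8.23. All 6 α9k1-naive libraries lay above all 5 GFP-naive libraries, and the gap between the groups was wider than the range of either. Its log2FC was 2.48 ± 0.16 (SE; adjusted p = 4.48e-08, limma), or 5.57-fold.
Nr1d1, the nuclear receptor that represses Arntl, had log2 levels of 4.51, 4.62, 4.46, 4.64 and 4.37 in GFP-naive libraries. The α9k1-naive libraries had a lowest level of 5.73, a median of 6.15 and a highest level of 6.25. The 2 groups did not overlap, as with Bhlhe40. Nr1d1 was 2.71-fold higher (log2FC = 1.44 ± 0.16 SE; adjusted p = 1.35e-05, limma).
Per3, a period gene that is not essential for the rhythm itself, had log2 levels of 3.003, 3.51, 3.07, 3.46 and 3.14 in GFP-naive libraries. The α9k1-naive levels were 2.11 at the lowest, 2.29 at the median and 2.63 at the highest. Every α9k1-naive library was below every GFP-naive library. Per3 was 1.95-fold lower (log2FC = -0.96 ± 0.21 SE; adjusted p = 0.00495, limma). Its mean level was among the lowest 25% of all genes.
Each of these members reached an exact permutation p of 0.002165 on the library values (2-sided), the smallest that 6 against 5 libraries can give. Groups did not overlap for 21.7% of all genes and for 3 of the 8 members.

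The period gene Per2 had a log2FC of 1.01 ± 0.43 (SE), close to the threshold but not past it (adjusted p = 0.11, limma). It was called higher when libraries were quantile-normalized (1.10, adjusted p = 0.0793, limma) or centred on their medians (1.06, adjusted p = 0.0958, limma), and was at 0.60 without covariates (adjusted p = 0.183, limma). Its levels in the α9k1-naive libraries ranged from 1.87 to 3.75, with replicate 3 at 1.87 below all 5 GFP-naive libraries, which lay between 2.08 and 3.21. The cryptochromes Cry1 and Cry2, the strongest repressors of the activator pair, differed by 0.51 ± 0.27 and 0.25 ± 0.18 and were not called. Without covariates they were called higher by 0.45 and 0.41, which made 5 of the 8 members called against 46.0% of all genes. The activator Arntl (-0.32 ± 0.19) and the output factor Dbp (-0.21 ± 0.21) were not called in either fit.

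After dorsal root crush in animals with GFP alone, Arntl and Bhlhe40 were lower. This comparison gives the response to the lesion without the integrin. Called genes were 23.1% of all genes and 2 of the 8 members, both lower. The members had a median log2 difference of -0.45 and all genes one of -0.08.

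Arntl had log2 levels of 4.03, 4.27, 3.98, 4.19 and 3.60 in GFP-naive libraries and of 3.52, 2.87, 2.90 and 3.04 in GFP-crush libraries. All 4 GFP-crush libraries lay below all 5 GFP-naive libraries, although GFP-naive replicate 5 at 3.60 and GFP-crush replicate 1 at 3.52 were nearly level. Arntl was 1.93-fold lower (log2FC = -0.95 ± 0.20 SE; adjusted p = 0.00655, limma).
Bhlhe40 fell to 4.63, 4.31, 4.68 and 4.61 in the GFP-crush libraries, all below the lowest GFP-naive library at 5.19. The change was 1.75-fold (log2FC = -0.80 ± 0.16 SE; adjusted p = 0.00551, limma). For both genes the exact permutation p was 0.007937 (2-sided), the smallest possible with 4 against 5 libraries. Non-overlapping groups were found for these 2 members and for 19.8% of all genes.

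Nr1d1, which was higher with α9k1, had overlapping levels in the GFP groups, with GFP-crush libraries at 4.20, 4.43, 4.53 and 4.60 inside or just under the GFP-naive range. Its log2FC was 0.00 ± 0.16 (SE), and the sign of so small a value changed with the scaling of the libraries. Cry1 showed a log2 difference of -0.58 ± 0.27, which was not called (adjusted p = 0.161, limma). Without covariates Cry1 was called lower by 0.59, for 3 of the 8 members against 31.1% of all genes. Its GFP-crush levels of 1.96, 2.40, 3.21 and 2.80 overlapped the GFP-naive levels, which ranged from 2.84 to 3.52. Per2 (-0.59 ± 0.43), Per3 (-0.31 ± 0.21), Cry2 (-0.10 ± 0.19) and Dbp (0.27 ± 0.21) were not called with or without the covariates. For Cry2 the sign changed when libraries were quantile-normalized or centred on their medians.

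Between α9k1-crush and GFP-crush libraries, only Bhlhe40 was called among the members. The study took GFP-crush animals as the control for vector injection and axotomy without regeneration. It also compared α9k1-crush with α9k1-naive animals to find genes tied to regeneration in the spinal cord. The main fit called 0.911% of all genes and 1 of the 8 members, and its SEs for the members were from 0.35 to 0.94. Bhlhe40 levels were 6.31, 6.85, 6.26 and 6.35 in the α9k1-crush libraries and 4.31 to 4.68 in the GFP-crush libraries. The log2FC was 2.13 ± 0.35 (SE; adjusted p = 0.00827, limma), or 4.36-fold. α9k1-crush replicate 2 was the highest library of its group, and the difference was called in all 19 fits that each left out 1 library, at 1.90 to 2.40.

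The library values of 4 further members separated completely between the crush groups, although none of these was called in the main fit. Groups did not overlap for 5 of the 8 members and for 40.8% of all genes, and the exact permutation p for each was 0.02857 (2-sided), the smallest that 4 against 4 libraries allow. Cry2 had α9k1-crush levels of 5.59, 5.48, 5.70 and 5.30, all above the GFP-crush levels of 3.96, 4.68, 4.52 and 4.60. Nr1d1 was likewise higher, at 5.25, 5.50, 5.07 and 5.15 against at most 4.60. Both of these genes encode repressors of the loop. Per3 was lower in α9k1-crush libraries, at 1.68, 2.42, 2.23 and 1.89, than in GFP-crush libraries, at 2.77, 2.50, 2.88 and 3.28. Dbp was lower too, at 3.88, 3.96, 3.74 and 3.48 against 4.88, 4.23, 4.79 and 4.72. The order of the groups in Nr1d1 and Per3 was the same as between the naive groups.
The covariates decided these 4 calls. Without them, limma called all 5 members that separated, against 58.0% of all genes: Bhlhe40 at 1.89, Cry2 at 1.08, Nr1d1 at 0.80, Per3 at -0.80 and Dbp at -0.89. With them, Cry2 was at 0.42 ± 0.40, Nr1d1 at 0.71 ± 0.35, Per3 at -0.52 ± 0.47 and Dbp at -0.59 ± 0.46, and the adjusted p lay between 0.576 and 0.817 (limma). Arntl was at 0.98 ± 0.42 (adjusted p = 0.509, limma), and its levels overlapped between the groups. Per2 and Cry1 were positive with the covariates and negative without them, and neither was called in either fit. The median of the 8 members was 0.57 with the covariates, where that of all genes was 0.01, and 0.08 without them, where that of all genes was 0.03.

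After crush in animals with α9k1, Bhlhe40 was lower, the only member called in this comparison. The main fit called 9.74% of all genes. Bhlhe40 was 6.26 to 6.85 after crush, against 7.79 to 8.23 without it, a 2.23-fold decrease (log2FC = -1.16 ± 0.29 SE; adjusted p = 0.0308, limma). Bhlhe40 was thus lower after crush with either vector, and in the order α9k1-naive, α9k1-crush, GFP-naive and GFP-crush no 2 neighbouring groups overlapped. For Nr1d1, the same order held, but the neighbouring GFP-naive and GFP-crush groups overlapped.
Nr1d1 was not called, with α9k1-crush libraries at 5.07 to 5.50, all below the lowest α9k1-naive library at 5.73 (log2FC = -0.73 ± 0.29 SE; adjusted p = 0.154, limma). Cry1 levels were 2.02, 2.82, 2.54 and 2.59 after crush and had a lowest value of 3.43, a median of 3.63 and a highest value of 3.81 without it. These groups did not overlap either, and the fitted difference of -0.96 ± 0.49 was not called (adjusted p = 0.27, limma). Non-overlap was found for 3 of the 8 members and 33.4% of all genes, with an exact permutation p of 0.004762 (2-sided), the smallest for 4 against 6 libraries. Without covariates, 6 of the 8 members were called, against 55.6% of all genes: Per2 (-1.40), Cry1 (-1.14), Nr1d1 (-0.82), Arntl (-0.45) and Bhlhe40 (-1.51) as lower and Cry2 (0.43) as higher. Arntl had the opposite sign with the covariates (0.36 ± 0.35). Per2 was the most variable member, with levels of 1.39, 2.49, 1.89 and 0.80 in the α9k1-crush libraries and an SD of 0.72. The mean levels of Per2, Per3 and Cry1 were among the lowest 25% of all genes. The median of the 8 members in the main fit was -0.29, against 0.00 for all genes.

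**Figure D2:**
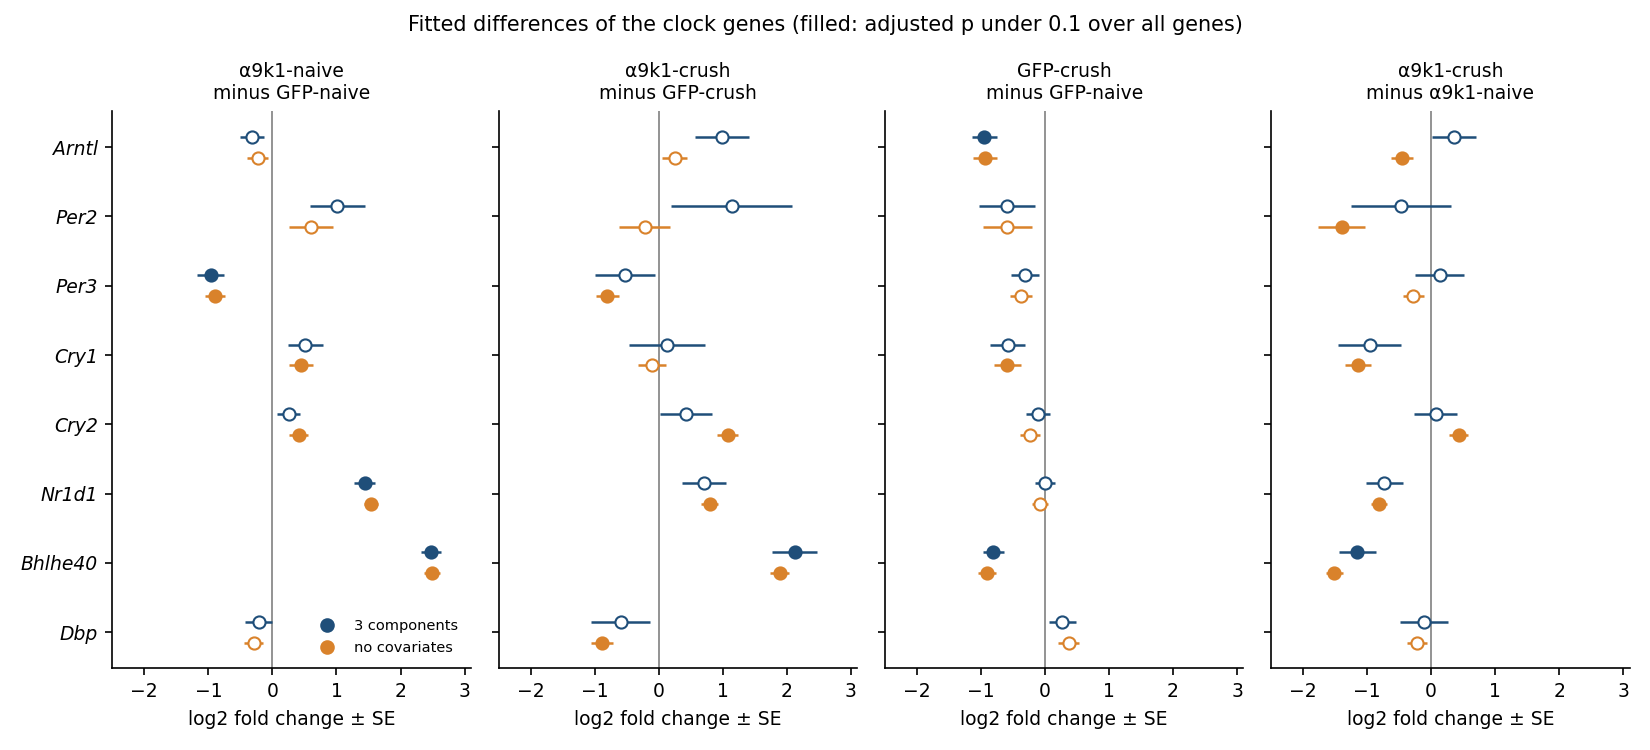
Fitted log2 fold changes (x axis, ± SE) of the 8 clock genes (y axis) in the 4 comparisons, with the 3 components as covariates (blue) and without covariates (orange). Filled points had an adjusted p under 0.1 over all genes. Bhlhe40 is filled in every panel under both fits, and the blue error bars are widest in the comparison of the crush groups, where only Bhlhe40 is filled in blue.

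The interaction asks whether crush acted differently in the α9k1 and the GFP animals. No member was called (limma), where 2.20% of all genes were. The largest differences among the members were those of Arntl, at 1.30 ± 0.40 (SE; adjusted p = 0.146, limma), and of Nr1d1, at -0.73 ± 0.33 (adjusted p = 0.329, limma). Arntl was called lower after crush under GFP and not under α9k1, and a difference between those responses was not shown. For Bhlhe40, the 2 decreases differed by -0.35 ± 0.33 (adjusted p = 0.689). Without covariates, 4 of the 8 members were called, against 39.4% of all genes: Cry2 at 0.67, Nr1d1 at -0.74, Dbp at -0.59 and Bhlhe40 at -0.61. The members had a median of -0.11 and all genes one of 0.07 in the main fit, and -0.57 and 0.08 without covariates.

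When each fit held only the 2 groups compared, Bhlhe40 was no longer called between the crush groups (2.52), after crush with GFP (-0.81) or after crush with α9k1 (-1.40), nor Arntl after crush with GFP (-0.86), while the 3 calls between the naive groups held. Among all genes these fits called 0 between the crush groups, 924 after crush with GFP and 202 after crush with α9k1. Between the naive groups they called 2964. The 4 comparisons share libraries, and their values for 1 gene are not independent of each other. Exons of Nr1d1 and Thra overlap on opposite strands by 263 bases and those of Dbp and Sphk2 by 539 bases, and opposite-strand overlaps with genes not analysed here were found for Cry2 (295 bases), Bhlhe40 (118 bases) and Arntl (33 bases). The libraries do not mark strand, since 49.9% to 50.0% of the reads had the annotated strand. Thra, a thyroid hormone receptor, had a log2FC of -0.06 ± 0.10 between the naive groups, where Nr1d1 was 1.44. Sphk2, a sphingosine kinase, had a log2FC of -0.03 ± 0.23 between the crush groups, and 0.48 without covariates, where Dbp was lower by 0.89. The reads of each pair cannot be separated in the shared exons.

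Other genes of the clock were taken from a list of 30 names, of which 23 were in the table. The remaining names were not analysed here. Between the naive groups, 6 were higher with α9k1, 3 were lower and 14 were not called, where 29.1% of all genes were called. Among partners and regulators of the loop, Arntl2, a paralog of Arntl, was higher by 1.06 ± 0.29 (SE; adjusted p = 0.0169, limma). Ciart, which encodes the repressor CHRONO, was higher by 1.12, and Rora, the receptor that activates Arntl through the sites at which REV-ERBα represses it, by 0.69. The repressor of D-box genes Nfil3, which opposes DBP, was higher by 1.68 ± 0.30 (adjusted p = 0.00117, limma). Among clock-controlled output genes, Nampt, the rate-limiting enzyme of NAD salvage, was higher by 1.82 ± 0.16 and the cytochrome P450 reductase Por by 0.43, and Tsc22d3, which also answers to glucocorticoids, was lower by 0.40. The call of Tsc22d3 was lost without covariates (-0.21, adjusted p = 0.18, limma). The casein kinase 2 genes Csnk2a1 and Csnk2b were lower by 0.69 and 0.41. The median over the 23 genes was 0.07.
After crush with GFP alone, 6 of the 23 were lower and 1 was higher, where 23.1% of all genes were called. Rora was lower by 1.29 ± 0.23 (SE; adjusted p = 0.00262, limma), Nfil3 by 1.37, the PAR bZIP factor Tef by 0.49, the PER kinase gene Csnk1e by 0.57, Csnk2a1 by 0.42 and the kinase gene Gsk3b by 0.48. Nampt was higher by 0.70. Their median was -0.23. Of the 4 genes called in both comparisons, Rora and Nfil3 went in opposite directions, Csnk2a1 was lower in both and Nampt higher in both. Without covariates, Csnk2a1 was not called after crush with GFP (-0.21, adjusted p = 0.396, limma). The comparisons share the GFP-naive libraries.
Between the crush groups, limma called none of the 23 with the covariates, where 0.911% of all genes were called. It called 11 as higher and 2 as lower without them, where 58.0% of all genes were called. Nfil3 had a log2FC of 2.56 ± 0.66 there (adjusted p = 0.143, limma), and 2.47 without covariates. After crush with α9k1, Nampt alone was called, lower by 0.85, where 9.74% of all genes were called. Without covariates 5 were called higher and 4 lower there, against 55.6% of all genes. It was also the only gene of the list called in the interaction (2.20% of all genes), at -1.56 ± 0.32 (adjusted p = 0.0357, limma), as it was higher after crush under GFP and lower under α9k1. Without covariates the interaction was called for 9 of the 23, 7 higher and 2 lower, against 39.4% of all genes.

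**Figure D3:**
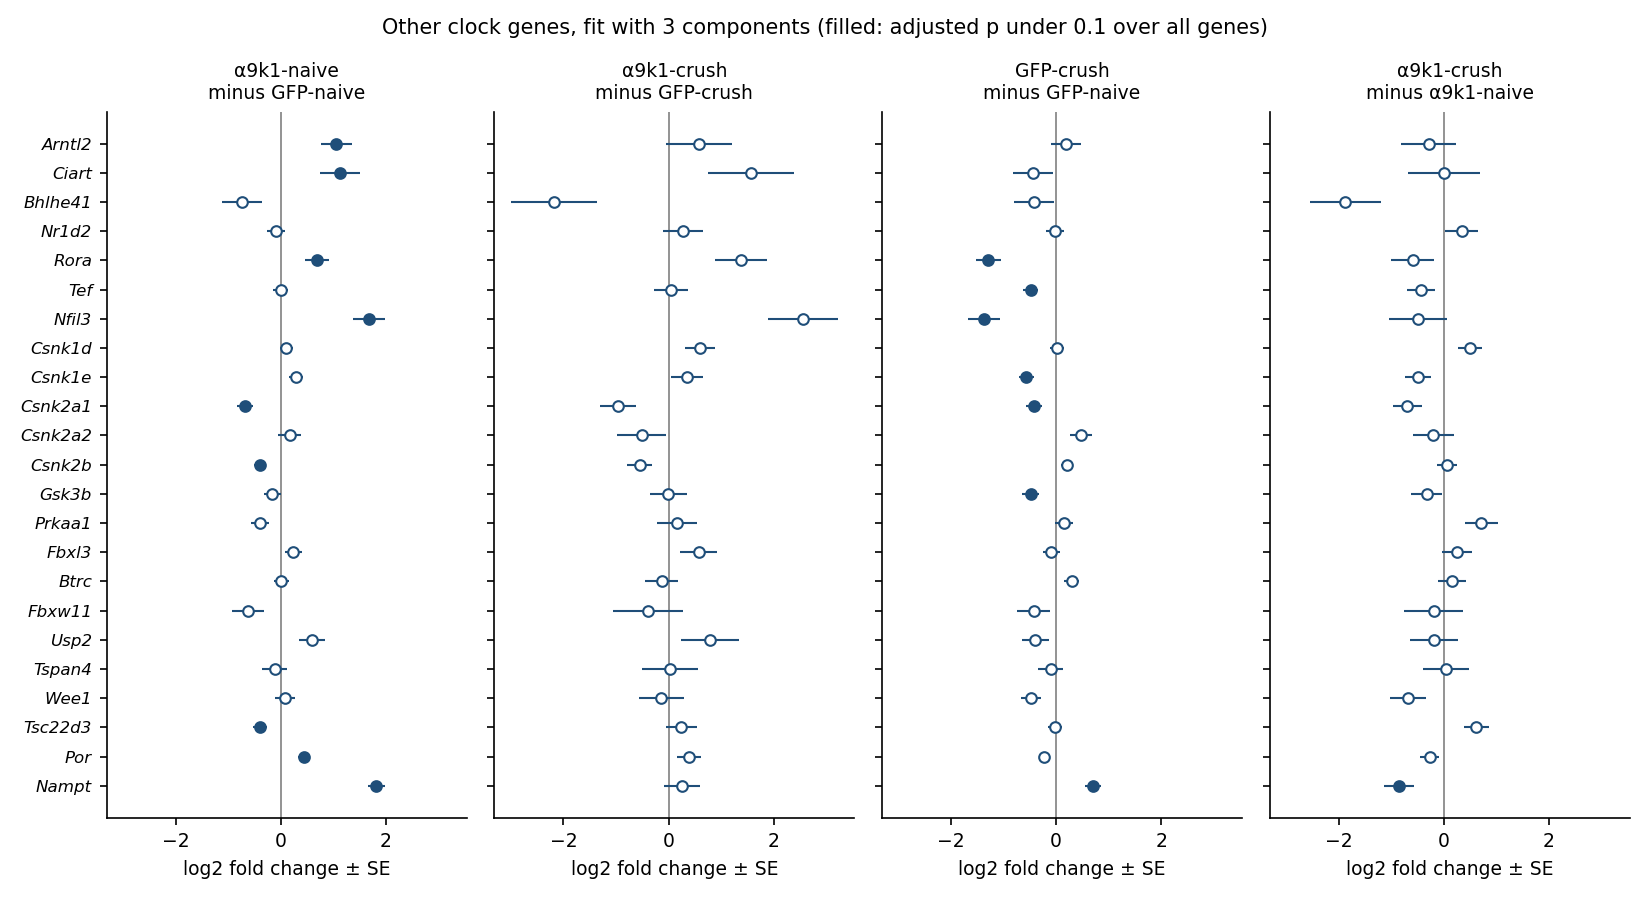
Fitted log2 fold changes (x axis, ± SE, fit with the 3 components) of the 23 other clock genes (y axis) in the 4 comparisons. Filled points had an adjusted p under 0.1 over all genes: 9 in the first panel, 0 in the second, 7 in the third and 1 in the fourth.

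Immediate early genes and glucocorticoid-responsive genes are known inputs to the clock and were looked at beside the members. Their counts in the main fit stand against 29.1% of all genes called between the naive groups and 23.1% after crush with GFP. Between the crush groups that share was 0.911%, and after crush with α9k1 it was 9.74%. All 11 immediate early genes, among them Fos and Egr1, were called higher in α9k1-naive than in GFP-naive libraries (median log2FC 1.52) and all 11 were lower after crush with GFP alone (median -1.20). Between the crush groups 9 of the 11 were higher with α9k1, and after crush with α9k1 5 of the 11 were lower. Without covariates these counts were 10 higher and 11 lower, where 58.0% and 55.6% of all genes were called. The summed log2 level of this list had medians of 13.5 in α9k1-naive, 12.3 in α9k1-crush, 12.0 in GFP-naive and 10.9 in GFP-crush libraries. Bhlhe40 ordered the groups by their means as α9k1-naive, α9k1-crush, GFP-naive and GFP-crush too. The sums of the list overlapped between α9k1-crush (12.0 to 12.6) and GFP-naive libraries (11.9 to 12.2), while Bhlhe40 did not overlap there. Fosb, Jun, Ier2 and Btg2 had lower means in α9k1-crush than in GFP-naive libraries. The means of Fos, Junb, Egr1, Egr2, Nr4a1, Arc and Atf3 were higher. Egr2 of this list is also a Schwann cell marker. Of the 10 glucocorticoid-responsive genes, 8 were in the table, and 5 were higher and 2 lower between the naive groups, while 1 was higher and 4 were lower after crush with GFP. Between the crush groups 2 of these 8 were higher, and after crush with α9k1 limma called 0. Without covariates 6 were higher between the crush groups, where 58.0% of all genes were called. After crush with α9k1 that fit called 2 higher and 4 lower, where 55.6% of all genes were called. Their summed log2 level had medians of 10.4 in α9k1-naive, 10.1 in α9k1-crush, 9.40 in GFP-naive and 8.97 in GFP-crush libraries. The part of either list, of the hour of collection or of cell dissociation in the changes of the clock members was not tested.

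In tissues with a running clock, Arntl is high when Dbp, Nr1d1 and Per3 are low. Library values were compared within groups, as deviations from the group mean, to see whether libraries of 1 group differed along that axis. Over the 19 libraries, Arntl had a Pearson r of -0.052 with Dbp (Spearman rho 0.0474), of 0.216 with Nr1d1 (rho 0.19) and of 0.0627 with Per3 (rho -0.0175). None of the 3 relations passed a permutation test within groups (unadjusted p = 0.847, 0.426 and 0.814, and adjusted p = 0.847 for each; for rho, adjusted p = 0.948 for each). Without the 2 libraries farthest from the median of Arntl, r was 0.0207, 0.432 and 0.0569. An inverse relation within groups was not seen over these 19 libraries, and how strong a relation they could have shown was not tested.

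**Figure D4:**
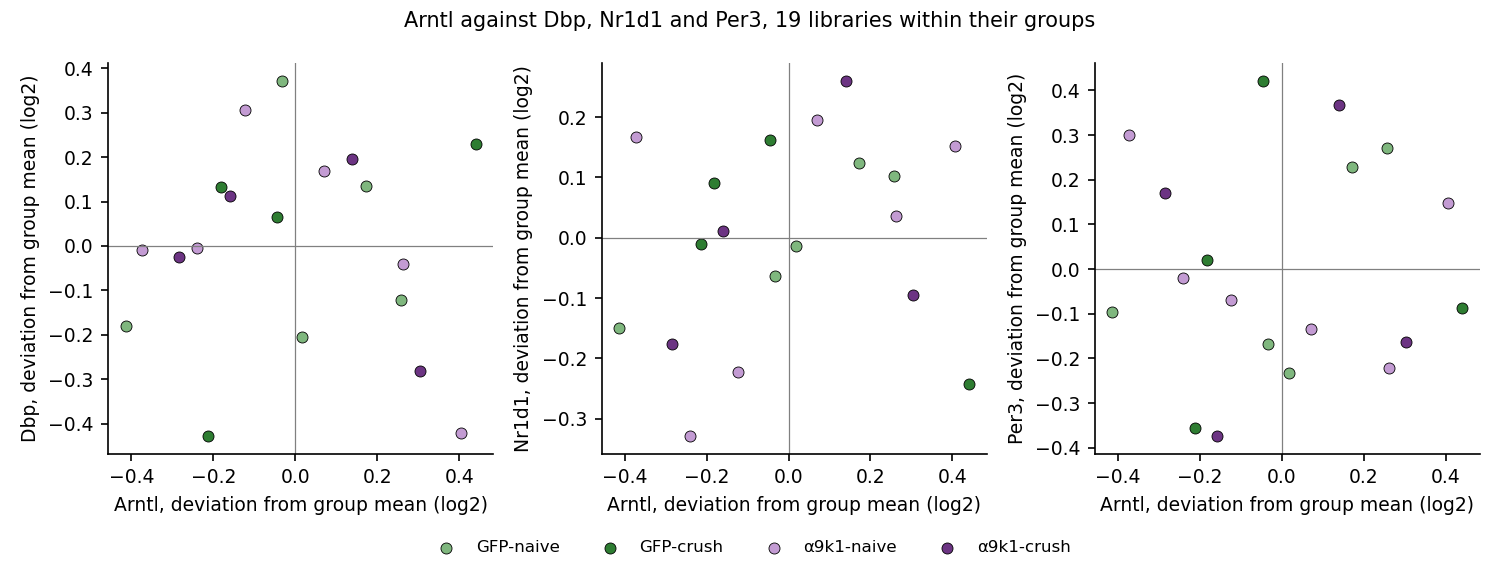
Deviation of Arntl from its group mean (x axis, log2) against that of Dbp, Nr1d1 and Per3 (y axes, log2), with 1 point for each of the 19 libraries, colored by group. Points lie in all 4 quadrants of each panel, with Pearson r of -0.052, 0.216 and 0.0627.

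Over all 19 libraries, genes most like Arntl in level included Srsf11 (Pearson r 0.857), Mxra8 (0.85), Fermt2 (0.847) and Ncor1 (0.844). For Dbp they were Gm11759 (0.849), Smco4 (0.844), Rrs1 (0.834), Gm12745 (0.832) and Gm14382 (0.827). These correlations are descriptions over points that share groups and library preparation.

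The deposited gene models place Arntl at chr7:113207465-113314126, Per2 at chr1:91415982-91459324, Per3 at chr4:151003652-151044665 and Cry1 at chr10:85131702-85185054 (GRCm38). Cry2 is at chr2:92403646-92434043, Nr1d1 at chr11:98767932-98775333, Dbp at chr7:45705088-45710203 and Bhlhe40 at chr6:108660629-108666925. All 8 are annotated as protein-coding.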

How the data were processed

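RNA-seq was analysed for 19 libraries of sorted DRG cells in 4 groups. According to the study's methods, SMART-Seq v4 libraries were aligned with STAR to the mouse genome (mm10), and reads were counted with Salmon. Genes under 10 reads in more than 80% of samples were removed. The log2 values were deposited by the authors after a small pseudocount and cqn normalization, and they range from -0.77 to 16.7. The pseudocount makes fold changes of low genes too small. Gene names came from a deposited table in the same row order, whose mean level column had a correlation of 0.959 with the row means. Tests run by the authors are deposited there as log2 fold changes and p-values, and were not used. Picard metrics of each library are deposited by the authors as counts, as fractions, as percent values (AT and GC dropout), as ratios (coverage by GC content) and as other numbers. Of these, 48 were scaled, and their first 3 principal components (45.9%, 24.1% and 11.5% of variance) served as covariates. The study's model has a batch term, which was not given for each library.

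The model was fitted with limma 3.58.1 in R 4.3.3 on all 12629 genes, with Benjamini-Hochberg adjustment, and was tested on simulated data. Exact permutation tests over libraries are 2-sided and were run in NumPy 2.4.6. Within-group correlations used 100000 resamples, with ranks from SciPy 1.17.1. Read counts per gene were not used here, so counting error enters only through the SD. Alternatives were no covariates, only the 2 groups compared, a replicate block, removal of the lowest 25% of genes, 2 other scalings and leaving out each library. The replicate numbers were not taken to pair libraries, since of 25 same-numbered pairs only 4 had deviations correlated over 0.1. Named genes are the 10 members, the listed clock genes that passed the test, and the 5 genes most like Arntl and Dbp, of which 1 is not reported here. The vector genes, overlapping genes and single list members named besides were added for context. The members and lists were chosen with earlier results of these data known. Labels and methods differ in species (mice or rats), dissociation and RNA kit.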

Additional observations from a re-analysis of the deposited data

Results flagged for a closer look

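Bhlhe40 in α9k1-crush replicate 2 had a log2 level of 6.85, with the other 3 libraries of its group between 6.26 and 6.35. The gap to the nearest library was 0.846 of the group's range, past Dixon's critical value for 4 libraries. With 32 groups of member values tested, it was the only one, where chance gives about 1 in 20. Leaving this library out kept each call of Bhlhe40, and added Nr1d1 as a second call for α9k1-crush against α9k1-naive.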

How the results depend on the processing

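All 7 calls of members were made again in each of the 19 fits that left out 1 library, and in the quantile-normalized and median-centred fits, which added Per2 as higher in α9k1-naive. The covariates mattered most: without them 5, 5, 6 and 4 members were called for α9k1-naive against GFP-naive, α9k1-crush against GFP-crush, α9k1-crush against α9k1-naive and the interaction. With only the 2 groups compared, fewer libraries entered each fit, and 0 members were called for α9k1-crush against GFP-crush, 1 for GFP-crush against GFP-naive and 0 for α9k1-crush against α9k1-naive. That 1 call was Per2 (-1.31), while Arntl (-0.86, adjusted p = 0.119, limma) and Bhlhe40 (-0.81, adjusted p = 0.122, limma) were not called. Of 12629 genes this fit called 0 between the crush groups, 924 for GFP-crush against GFP-naive and 202 for α9k1-crush against α9k1-naive. The main fit called 115, 2917 and 1230 of them. With 2 groups Bhlhe40 was at 2.52 between the crush groups and at -1.40 for α9k1-crush against α9k1-naive. Leaving out 1 library gave 1 to 2 calls for α9k1-crush against α9k1-naive (2, with Nr1d1, without α9k1-crush replicate 2 or α9k1-naive replicate 6) and 0 to 1 for the interaction (1, Arntl, without GFP-naive replicate 1). It gave 3 to 4 for α9k1-naive against GFP-naive (4, with Per2, without α9k1-crush replicate 3 or 4, α9k1-naive replicate 3 or GFP-naive replicate 3) and 2 to 3 for GFP-crush against GFP-naive (3, with Cry1 at -0.69, without GFP-crush replicate 3). Removal of the lowest 25% of genes took Per2, Per3 and Cry1 out of the fit. The replicate block left 0 calls for α9k1-crush against α9k1-naive, with Bhlhe40 at -1.27 ± 0.37 (adjusted p = 0.14, limma) and 331 in place of 1230 calls over all genes, and moved no other count of members. Median-centring moved the median log2 difference of all genes from -0.08 to 0.06 for GFP-crush against GFP-naive and from 0.07 to -0.06 for the interaction.

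Values of uncalled members changed sign as follows (log2), and the cause was not tested. For α9k1-crush against GFP-crush, Per2 was -0.22 without covariates and with only 2 groups. Cry1 was -0.10 without covariates, -0.34 with 2 groups, -0.21 in the block and -0.0831 to 0.39 with 1 library left out, while Cry2 was -0.34 and Dbp 0.22 with 2 groups. For GFP-crush against GFP-naive, quantile normalization and median-centring gave 0.0134 and 0.0363 for Cry2 and 0.13 and 0.14 for Nr1d1, with -0.19 to 0.0686 and -0.11 to 0.10 when 1 library was left out. For α9k1-crush against α9k1-naive, Arntl was -0.45 and Per3 -0.28 without covariates, Per3 -0.73 and Cry2 -0.14 with 2 groups, and Per2 0.95, Cry2 -0.30 and Dbp 0.16 in the block. With 1 library left out, Per3 was -0.086 to 0.30, Cry2 -0.20 to 0.28 and Dbp -0.41 to 0.42. For the interaction, Per2 was -0.81 without covariates, -0.0058 median-centred and -0.41 to 0.65 with 1 library left out, and Cry2 was -0.20 in the block and -0.0694 to 0.34. Pearson r of Arntl with Dbp was 0.0207 without the 2 farthest libraries and -0.21 to 0.175 with 1 left out, and with Per3 -0.159 with covariates regressed out and -0.0302 to 0.207. With Nr1d1 it was 0.113 to 0.489 with 1 left out, the highest without GFP-crush replicate 1 (unadjusted permutation p = 0.0923).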
